A study of Rattus norvegicus with 20 samples.

Results

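The miRNAs described here are 7 mature products of the miR-99/100 and miR-125 families, taken by name from the deposited miRNA tables of a rat brain area, the adBNST (anterodorsal bed nucleus of stria terminalis): rno-miR-99a-5p, rno-miR-99b-5p, rno-miR-100-5p, rno-miR-125a-5p, rno-miR-125b-5p, rno-miR-125b-1-3p and rno-miR-125b-2-3p, written below without the prefix for the rat. They were 7 of the 617 miRNAs with reads, and each was found in all 20 libraries. All 7 were among the 500 miRNAs that passed the filter of at least 10 reads in at least 5 libraries. Small RNA was sequenced from 20 Sprague-Dawley rats, 5 in each of 4 groups. The paper states that females were picked for sequencing by high RNA integrity and to cover different estradiol levels. It states no such choice for males. Socially isolated (SI) males and SI females were weaned on postnatal day 21 and kept 1 to a cage for 6 weeks, and group-housed (GH) males and GH females were kept with littermates of their sex, 3 to a cage, for the same 6 weeks. Anxiety-like behavior was measured in an elevated maze at 9 weeks of age, and the rats were then killed, so every group had been through the maze, and the adBNST was punched from the frozen brain. The labels do not say which GH rats shared a cage or a litter. A punch holds every cell type of the area, and in such bulk RNA a lower level cannot be told apart from fewer cells of a type or less of the miRNA per cell. Rats are named by their labels, in which G or I stands before the number of a GH or SI rat and M or F after it.

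The miR-99/100 and miR-125 genes lie in 3 clusters, each of which also holds a let-7 gene between a miR-99/100 gene and a miR-125 gene. The members of miR-125 are the vertebrate relatives of lin-4, the first miRNA found in worms, and are abundant in neurons, where miR-125b has been studied at synapses. The miR-99/100 family is known for targeting mTOR and insulin-like growth factor receptor transcripts. Each hairpin yields a 5p and a 3p arm, and the more abundant arm, here miR-125b-5p, is called the guide and the other the passenger.

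The mature sequences of 6 members were found in RefSeq (rat build GRCr8), and are given because the families are defined by the seed, bases 2 to 8 from the 5′ end, in capitals here. The deposited tables carry no genome positions, so the positions are those of RefSeq, all on the plus strand. miR-99b-5p (chr1:67350070-67350091) and miR-125a-5p (chr1:67350689-67350712) lie in the protein-coding gene Spaca6, together with let-7e. miR-100-5p (chr8:50798307-50798328) and miR-125b-1-3p (chr8:50850090-50850111) lie with let-7a-2 inside the genes Mir100hgl and Lnc215. The third cluster, miR-99a, let-7c-1 and miR-125b-2, lies in the long noncoding RNA LOC103693508, with miR-125b-5p at chr11:29732588-29732609 and miR-125b-2-3p at chr11:29732627-29732648.
miR-99b-5p: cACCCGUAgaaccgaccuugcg
miR-100-5p: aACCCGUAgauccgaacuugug
miR-125a-5p: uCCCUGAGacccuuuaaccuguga
miR-125b-5p: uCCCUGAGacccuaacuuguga
miR-125b-1-3p: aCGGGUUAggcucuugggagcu
miR-125b-2-3p: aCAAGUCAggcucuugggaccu

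miR-99b-5p and miR-100-5p share the seed ACCCGUA and differ at 4 of 22 positions counted from the 5′ end of miR-100-5p (A1C, U11A, A16C and U21C), all outside the seed. miR-125a-5p and miR-125b-5p share the seed CCCUGAG, their first 13 bases and their last 5 bases. The passengers of the miR-125b hairpins do not share a seed: miR-125b-1-3p and miR-125b-2-3p differ at 4 positions (G3A, G4A, U7C and G20C), and 3 of these lie in the seed. The hairpins miR-125b-1 and miR-125b-2 carry the same guide sequence. The authors' tables placed between 99.9% and 100% of the miR-125b-5p reads of a library on the hairpin miR-125b-2, so the origin of the guide reads from 1 hairpin or the other cannot be told apart, whereas each passenger names its hairpin.

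The libraries held between 3428930 and 11383055 miRNA reads (median 6705043), and the 7 members took between 7.72% and 10.4% of them (median 8.63%). Depth differed with housing: the median was 4983188 reads in GH and 7290553 in SI males, and 5276646 in GH and 6998674 in SI females. The lowest count of a member was 1483 reads, for miR-125b-1-3p in G17F, so counting error was small beside the spread between rats. Reads were not collapsed by molecular identifiers, and any interval of counts covers counting error only. No pair of libraries was a copy of another. The libraries of I17M and I17F carry file names with the opposite sex, and they were placed by their labels. I16F stood apart, with the fewest miRNAs found (367) and the lowest normalization factor (0.831).

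The members spanned a wide range of levels, given as normalized counts (CPM, counts of reads scaled to a common library size, with TMM normalization). miR-125a-5p was the most abundant member, with a median of 38420 CPM over the 20 rats, the 8th highest of the 500 miRNAs. It was followed by miR-125b-5p at 24288 CPM, 10th, and by miR-99b-5p at 12660 CPM, 22nd. These stood in the same order in 20 of 20 libraries, so the 3 leading members did not change places with housing or sex. miR-99a-5p (median 4927 CPM) and miR-100-5p (3412 CPM) followed, and their order was not fixed, since miR-99a-5p was higher in 13 of 20 libraries. The passengers were lowest. miR-125b-2-3p reached 1746 CPM, and was above miR-125b-1-3p, at 522 CPM, in 19 of 20 libraries, I16F being the exception.

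**Figure D1:**
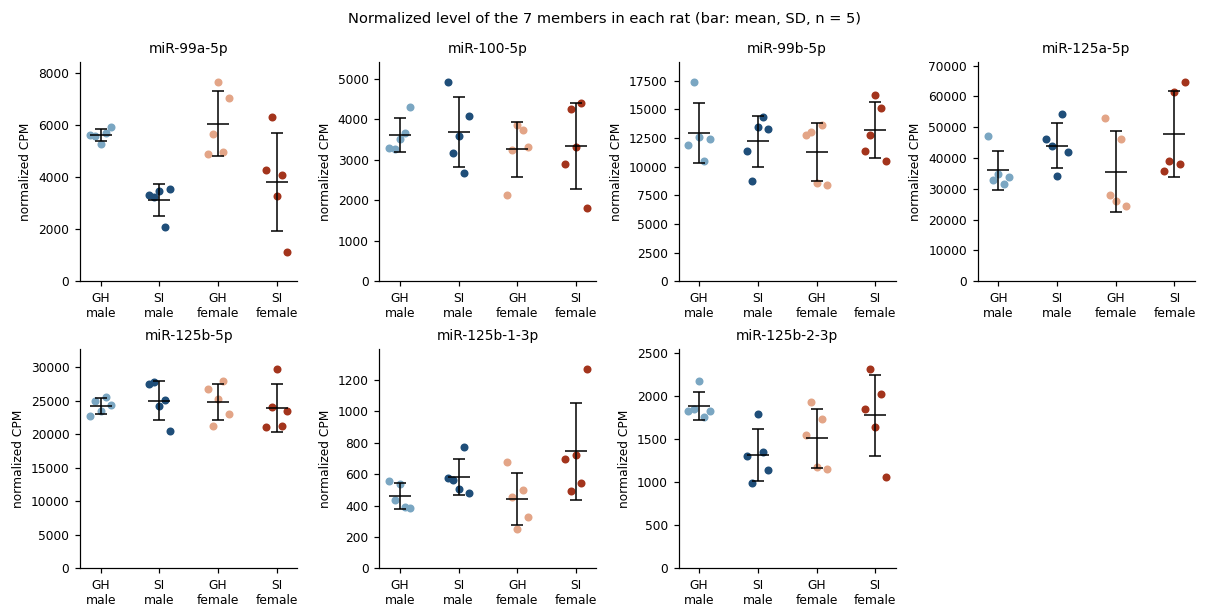
Normalized level in CPM of each of the 7 members (1 panel each, linear axis from 0) in the 5 rats of each group, with the mean and SD as bars. miR-99a-5p lay between 2074 and 3548 CPM in SI males and between 5288 and 5915 CPM in GH males, while miR-125b-5p lay between 20560 and 29741 CPM in every group.

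The comparison of SI with GH rats asks which miRNAs differ after isolation during adolescence. In males, 0 of the 7 members passed the threshold of an adjusted p of 0.05 (edgeR quasi-likelihood F test), where 20 of all 500 miRNAs, 4%, did. In females it was 0 of 7 members, beside 0.4% of all miRNAs. At an unadjusted p under 0.05 there were 2 members in males (miR-99a-5p and miR-125b-2-3p), beside 23% of all miRNAs, and 2 in females (miR-99a-5p and miR-125b-1-3p), beside 20.8%. DESeq2's Wald test called 1 member in each sex, beside 12.4% of the miRNAs it adjusted in males and 19.3% in females. For the mean effect of both sexes, 2 of 7 members passed, beside 17.6% of all miRNAs. miR-99a-5p was the 1 member called lower, beside 10.2% of all miRNAs, and miR-125b-1-3p the 1 called higher, beside 7.4%. At an unadjusted p under 0.05 there were 3 members, beside 32.2%, and DESeq2 called 2, beside 33.2%. The members' median log2 fold change was 0.03 in males and 0.22 in females, beside -0.01 and -0.13 over all miRNAs tested, and the members did not move as 1 block.

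**Figure D2:**
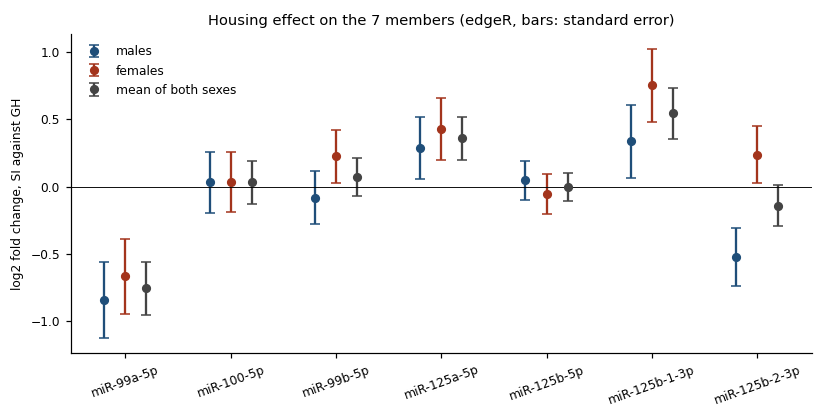
Log2 fold change of SI against GH rats for each member in males, in females and as the mean of both sexes, with the standard error from edgeR as bars. miR-99a-5p lay at -0.84 in males and -0.67 in females, miR-125b-1-3p at 0.34 and 0.75, and miR-125b-2-3p at -0.52 and 0.24.

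miR-99a-5p, which lies beside let-7c-1 and miR-125b-2 on chromosome 11, was lower in SI rats. In GH males it stood at 5603 CPM in G16M, 5288 in G18M, 5587 in G19M, 5689 in G20M and 5915 in G21M. In SI males it stood at 3303 CPM in I15M, 2074 in I17M, 3240 in I19M, 3548 in I20M and 3477 in I22M. Every SI male lay below every GH male, and the GH males were close to each other. Such a gap between the groups was found for 1 of 7 members in males, and for 13.8% of all miRNAs, so the share among the members was near that of all miRNAs. The SI level was 0.557 times the GH level (log2 fold change -0.84, SE 0.28), which did not pass in the model of 4 groups (edgeR, adjusted p = 0.0871). It passed with DESeq2 (-0.86, adjusted p = 0.0275), and in edgeR with the males alone (-0.86, adjusted p = 0.0025, in a fit that called 18.5% of all miRNAs) or without the female I16F (-0.88, adjusted p = 0.0029).

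In females the groups overlapped. GH females had 5678 CPM of miR-99a-5p in G12F, 4958 in G13F, 4896 in G15F, 7663 in G16F and 7049 in G17F, and SI females had 6304 CPM in I10F, 4082 in I12F, 4265 in I14F, 1116 in I16F and 3290 in I17F. I16F was lowest of all 20 rats, and I10F lay among the GH females. The log2 fold change was -0.67 (SE 0.28), and did not pass (edgeR, adjusted p = 0.165). Without I16F it was -0.41, and without I10F it was -0.89 and passed (adjusted p = 0.0432). As the mean effect of both sexes miR-99a-5p fell by 0.76 on the log2 scale (SE 0.20), to 0.592 times the GH level (edgeR, adjusted p = 0.0129). The mean effect passed whichever of the 20 rats was omitted, with adjusted p from 0.0029 to 0.0286, and with both I16F and I17M left out it was -0.57 (adjusted p = 0.0039). The effect in females minus that in males was 0.18 (SE 0.40, adjusted p = 0.954), so a difference between the sexes was not detectable.

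Some miRNAs taken as markers of other cell types also differed with housing. In the mean effect of both sexes, 1 of 2 vascular mural miRNAs (miR-143-3p), 1 of 2 endothelial miRNAs (miR-126a-3p) and 1 of 3 oligodendrocyte miRNAs (miR-338-3p) were lower in SI rats, and 1 of 3 blood miRNAs (miR-486) was higher. Of all miRNAs, 10.2% were called lower and 7.4% higher in this comparison. The groups did not overlap for 13.8% of all miRNAs in males and 2% in females. The oligodendrocyte miRNAs gave values of both signs. miR-219a-2-3p, with a median of 20944 reads, had a mean log2 fold change of 0.30 (SE 0.19, adjusted p = 0.305), miR-338-3p, with a median of 360.5 reads and none in 1 library, -1.74 (SE 0.48, adjusted p = 0.0162), and miR-219a-5p, with a median of 36.5 reads and none in 3 libraries, -2.07 (adjusted p = 0.0891, edgeR). The other blood markers, miR-451-5p and miR-144-3p, were at 0 in 4 and in 11 libraries. Their mean log2 fold changes were 0.09 (SE 0.94, adjusted p = 0.966) and 1.03 (SE 1.25, adjusted p = 0.641, edgeR). In males they were 0.72 and 4.20 and in females -0.54 and -2.14, none past the threshold. The mural miRNAs summed to a level of 9402 to 14298 CPM in the GH males, against 4050 to 6530 CPM in the SI males, and of 9930 to 19740 CPM in the GH females, against 2050 to 13774 CPM in the SI females. These sums were nearly all miR-143-3p. The other mural miRNA, miR-145-5p, lay at 95.7 to 192.2 CPM in GH and 85.6 to 129.6 CPM in SI males. In females it lay at 100.5 to 196.0 CPM in GH and 18.4 to 140.3 CPM in SI rats. Its log2 fold change was -0.23 in males (SE 0.39, adjusted p = 0.842) and -1.02 in females (SE 0.39, adjusted p = 0.118, edgeR). Its mean log2 fold change was -0.63 (SE 0.27, edgeR, adjusted p = 0.113). For the endothelial miRNAs the sums were 880.5 to 1231 against 258.6 to 698.0 CPM in males, and 946.5 to 2234 against 79.9 to 1096 CPM in females. They were mostly miR-126a-3p, and miR-126a-5p gave a mean log2 fold change of -0.63 (SE 0.48, edgeR, adjusted p = 0.398). The oligodendrocyte miRNAs summed to 2527 to 4990 against 3274 to 6379 CPM in males and 2783 to 4856 against 2558 to 6828 CPM in females, and the blood miRNAs to 1005 to 1358 against 1490 to 3117 CPM in males and 792.3 to 1456 against 1405 to 4036 CPM in females. The blood sums were nearly all miR-486. The 3 neuronal miRNAs (miR-124-3p, miR-9a-5p and miR-128-3p) had at least 43208 reads each in every library, and 0 of 3 passed. Their mean log2 fold changes had both signs: -0.41 (SE 0.17), 0.09 (SE 0.14) and 0.23 (SE 0.16), with adjusted p = 0.101, 0.727 and 0.343 in edgeR. By sex, miR-124-3p gave -0.62 in males (SE 0.24, adjusted p = 0.120) and -0.19 in females (SE 0.24, adjusted p = 0.702, edgeR). miR-9a-5p gave 0.05 in males and 0.14 in females, and miR-128-3p 0.13 and 0.33, none past the threshold. Among the choroid plexus and among the myeloid miRNAs 0 of 3 passed. The choroid plexus sums were 842.2 to 2446 CPM in GH and 1069 to 18201 CPM in SI males, and 1219 to 5231 CPM in GH and 845.3 to 4064 CPM in SI females, nearly all of it miR-204-5p, and miR-200a-3p and miR-429 were at 0 in 15 and 18 libraries. The SI male at 18201 CPM was I20M, and the next SI male, I17M, stood at 1506 CPM. Without I20M the mean effect on miR-99a-5p was -0.80 (edgeR, adjusted p = 0.0150). The myeloid sums were 11.3 to 39.0 against 5.83 to 29.5 CPM in males and 10.6 to 51.1 against 0 to 17.8 CPM in females. Among males, 454 to 530 miRNAs were found in GH and 406 to 479 in SI rats, and among females 459 to 528 and 367 to 475, although the SI libraries held more reads at the median. The part of these differences in the levels of the members was not tested.

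miR-125b-1-3p, the passenger of the chromosome 8 hairpin, was higher in SI rats. GH females had 457.2 CPM in G12F, 497.8 in G13F, 678.7 in G15F, 252.4 in G16F and 327.1 in G17F. SI females had 495.9 CPM in I10F, 544.8 in I12F, 696.8 in I14F, 1271 in I16F and 725.6 in I17F. I16F was again at an extreme, here the highest of all 20 rats, and the groups overlapped. The log2 fold change in females was 0.75 (SE 0.27), which did not pass in edgeR (adjusted p = 0.112) and passed with DESeq2 (0.81, adjusted p = 0.0330). Without I16F it was 0.51 (adjusted p = 0.281), and without I10F it was 0.88 (adjusted p = 0.0386). In males the level was 460.8 ± 81.0 CPM in GH and 581.9 ± 115.2 CPM in SI rats (mean ± SD, n = 5), a log2 fold change of 0.34 (SE 0.27) that did not pass (edgeR, adjusted p = 0.506). The mean effect of both sexes, 0.55 (SE 0.19), passed narrowly (edgeR, adjusted p = 0.0493). It remained under the threshold in 3 of 20 fits with 1 rat omitted, and without both I16F and I17M it was 0.36 (adjusted p = 0.152).

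miR-125b-2-3p, the passenger of the chromosome 11 hairpin, gave different signs in the sexes. In GH males it stood at 1829 CPM in G16M, 2174 in G18M, 1848 in G19M, 1760 in G20M and 1831 in G21M. In SI males it stood at 1306 CPM in I15M, 1347 in I17M, 995.4 in I19M, 1137 in I20M and 1792 in I22M. All SI males except I22M lay below all GH males. The log2 fold change in males was -0.52 (SE 0.21, edgeR, adjusted p = 0.134). It passed with the males alone (-0.55, adjusted p = 0.0292) and without the female I16F (-0.57, adjusted p = 0.0365). In females the level was 1509 ± 342 CPM in GH and 1780 ± 470 CPM in SI rats (n = 5), a log2 fold change of 0.24 (SE 0.21) that did not pass (edgeR, adjusted p = 0.580). The difference between the sexes in the effect was 0.76 (SE 0.30), with an unadjusted p of 0.0193 (the 1 member under 0.05, beside 7.2% of all miRNAs) and an adjusted p of 0.485 in edgeR, and was not past the threshold.

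The remaining members did not pass in the comparisons of all 20 rats. miR-125a-5p was at 36009 ± 6297 CPM in GH males and 43990 ± 7358 CPM in SI males, and at 35477 ± 13125 CPM in GH females and 47782 ± 14078 CPM in SI females (mean ± SD, n = 5). Its log2 fold change was 0.29 (SE 0.23) in males and 0.43 (SE 0.23) in females, and the mean effect of 0.36 (SE 0.16) had an unadjusted p of 0.0368 and an adjusted p of 0.122 in edgeR. Without G15F this effect passed (0.45, adjusted p = 0.0471), the only such fit of 20 that each omitted 1 rat. miR-125b-5p, the guide of both miR-125b hairpins, varied least of the 7 members over the 20 rats (SD 0.15 on the log2 scale), with log2 fold changes of 0.05 in males and -0.06 in females (SE 0.15 each). miR-99b-5p gave -0.08 and 0.22 (SE 0.20 each), and miR-100-5p, which carries the same seed, 0.03 and 0.04 (SE 0.23 each). The signs of miR-100-5p and miR-125b-5p changed with the scaling of the libraries. Females compared with males gave 0 of 7 members in GH rats and 0 of 7 in SI rats, beside 0% of all miRNAs in both, and 0 members at an unadjusted p under 0.05, beside 2.4% in GH and 10% in SI rats. DESeq2 also called 0 members in both, beside 0.605% and 1.01% of the miRNAs it adjusted.

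Ratios of members were formed within each library, where library scaling has no part. The question was whether products that share a family, a hairpin or a cluster kept their proportions. Each ratio was compared between 5 SI and 5 GH rats of a sex by a two-sided exact permutation test of the log2 ratio, with p-values adjusted over 8 tests. The smallest p that 5 rats against 5 allow is 0.0079, which could not pass the adjustment over 8 tests unless other tests also gave small p.

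The ratio of miR-99a-5p to miR-100-5p was 1.70 in G16M, 1.51 in G18M, 1.71 in G19M, 1.55 in G20M and 1.38 in G21M, and it was 0.671 in I15M, 0.775 in I17M, 1.03 in I19M, 0.868 in I20M and 0.968 in I22M. Every SI male lay below every GH male, and all 5 GH males but only 1 SI male, I19M, had more miR-99a-5p than miR-100-5p. The geometric mean was 1.56 in GH and 0.852 in SI males, a log2 difference of -0.88 (exact permutation p = 0.0079, adjusted p = 0.0635). In females it was 1.86 and 1.04, a log2 difference of -0.84 (exact permutation p = 0.0238, adjusted p = 0.0635). Neither passed after adjustment, although the p in males was the smallest that the design allows. The difference between the sexes was 0.04 (exact permutation p = 0.939).

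The ratio of the miR-125b-5p guide to the sum of its passengers ranged from 8.25 to 17.8 (median 11.4), so the guide was the dominant strand in every rat. In GH males it was 9.51 in G16M, 8.66 in G18M, 10.97 in G19M, 11.9 in G20M and 10.98 in G21M, and in SI males 14.6 in I15M, 11.8 in I17M, 17.8 in I19M, 12.7 in I20M and 10.5 in I22M. In GH females it was 8.89 in G12F, 12.5 in G13F, 11.99 in G15F, 17.6 in G16F and 15.6 in G17F, and in SI females 8.58 in I10F, 8.25 in I12F, 8.27 in I14F, 10.1 in I16F and 12.6 in I17F. Most SI males lay on the high side of their sex and most SI females on the low side, with overlap in both sexes. The log2 difference was 0.36 in males (exact permutation p = 0.0556, adjusted p = 0.0847) and -0.46 in females (exact permutation p = 0.0635, adjusted p = 0.0847), and neither passed. The effect in females minus that in males was -0.82, and this difference passed (exact permutation over 63504 assignments of housing within the sexes, p = 0.0053, adjusted over 4 ratios p = 0.0212). This test of the difference was added after the files were seen. The difference lay between -0.96 and -0.71 when single rats were omitted, and was -0.86 with the libraries of I17M and I17F exchanged. This ratio is not separate from the level of miR-125b-2-3p, the larger passenger in 19 of 20 libraries (median 1746 CPM, beside 522 CPM for miR-125b-1-3p). For miR-125b-2-3p alone the difference between the sexes was 0.76 and, adjusted over 500 miRNAs, did not pass (edgeR, adjusted p = 0.485).

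Each passenger was also taken alone against all guide reads, whose hairpin cannot be told apart. The median ratio of guide to miR-125b-2-3p was 13.3 in GH and 18.7 in SI males, and 17.2 in GH and 11.4 in SI females. The median ratio of guide to miR-125b-1-3p was 57.7 in GH males and 47.5 in SI males, and 56.1 in GH females and 38.9 in SI females. The medians moved in opposite directions in the sexes for the passenger of miR-125b-2 and in the same direction for that of miR-125b-1, which was not tested further. The other ratios are given as geometric means. The ratio of miR-125b-2-3p to miR-125b-1-3p was 4.14 in GH and 2.25 in SI males (log2 difference -0.88, exact permutation p = 0.0159, adjusted p = 0.0635) and 3.53 in GH and 2.45 in SI females (-0.53, exact permutation p = 0.341, adjusted p = 0.341). Without I16F, in which the ratio of that rat was 0.836, the difference in females was -0.14. The ratio of miR-125a-5p to miR-125b-5p, which share a seed, was 1.47 in GH males and 1.75 in SI males, and 1.36 in GH females and 1.95 in SI females (log2 differences 0.25 and 0.52, exact permutation p = 0.190 and 0.0635, adjusted p = 0.218 and 0.0847).

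**Figure D3:**
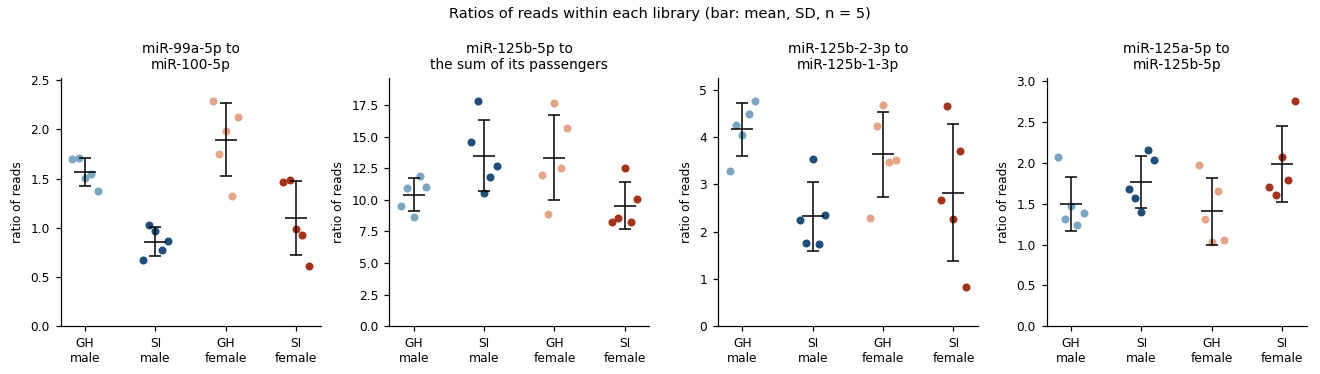
Ratio of reads within each library (linear axis from 0) for 4 pairs of members, in the 5 rats of each group, with the mean and SD as bars. The miR-99a-5p to miR-100-5p ratio of SI males (0.671 to 1.03) lay below that of GH males (1.38 to 1.71), and the guide to passenger ratio of miR-125b ran from 8.25 to 17.8 over all rats.

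The deposited tables list each distinct read, so the forms of each member (isomiRs) could be described. miR-125a-5p was mostly shorter than its reference: the exact reference made up a median of 13.7% of its reads and forms with a shortened 3′ end 81.3%. miR-125b-1-3p carried untemplated tails on 61.3% of its reads, a T on 36.7% and an A on 20.1%, and 11.9% had a shifted 5′ end, which moves the seed. The leading reads of these members are given because neither equals its reference sequence. The capitals mark the seed and, at the end of the second, the added T.
miR-125a-5p, leading in 20 of 20 libraries, median 56.6% of reads: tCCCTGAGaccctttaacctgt
miR-125b-1-3p, leading in 18 of 20 libraries, median 28.4% of reads: aCGGGTTAggctcttgggagT

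The first is 22 bases long and lacks the last 2 bases of the reference, and the second lacks the last 2 bases and has 1 base added. miR-99b-5p, miR-100-5p and miR-125b-5p were led by the exact reference in 20 of 20 libraries, at medians of 51.9%, 52.3% and 46.9% of their reads. miR-125b-2-3p was tailed on 39.6% of its reads, with a T on 26.3%. miR-99a-5p was led by a form 1 base shorter in 15 of 20 libraries and by the exact reference in the other 5, which were 2 GH males, 2 GH females and 1 SI female. A substitution at the first base, A1G, counted from the 5′ end of the reference, was on 2.40% to 5.56% of the reads of miR-99a-5p (median 3.57%), and on 0% to 0.650% of those of miR-100-5p (median 0.316%).

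The share of reads equal to the reference was compared by the same exact permutation test, in the members and in all 232 miRNAs that had at least 100 reads in every library. The mean share was lower in SI rats for 7 of 7 members in each sex, beside 57.3% of all 232 miRNAs in males and 56.5% in females. An unadjusted p under 0.05 was found for 4 of 7 members in males and 1 of 7 in females, beside 21.6% and 10.3% of all, and groups that did not overlap for 2 and 1 members, beside 8.62% and 4.31%. Adjusted over all 232 miRNAs, 0 members passed in either sex, beside 0% of all in both, so the shares below are given as values. The smallest p the design allows, 0.0079, could not pass this adjustment unless it was shared by many miRNAs. For miR-99a-5p in males the share was 41.0% in G16M, 39.4% in G18M, 41.6% in G19M, 35.6% in G20M and 36.9% in G21M, and 25.2% in I15M, 29.4% in I17M, 30.0% in I19M, 27.0% in I20M and 33.6% in I22M. The groups did not overlap, with means of 38.9% ± 2.58 in GH and 29.0% ± 3.20 in SI males (SD, n = 5, exact permutation p = 0.0079, 0.0921 adjusted over all miRNAs and 0.037 over the 14 tests of the members). Beside it, forms with a shortened 3′ end averaged 46.7% in GH and 55.1% in SI males, and tailed forms 11.3% and 14.6%. In females the reference share was 40.5% ± 2.85 in GH and 35.6% ± 4.66 in SI rats, which did not pass (exact permutation, n = 5, p = 0.103).

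For miR-125b-2-3p in males the share was 40.9% in G16M, 40.1% in G18M, 38.2% in G19M, 33.5% in G20M and 39.7% in G21M, and 32.4% in I15M, 29.3% in I17M, 26.6% in I19M, 31.6% in I20M and 32.4% in I22M. Again every SI male lay below every GH male (38.5% ± 2.97 against 30.4% ± 2.50, SD, n = 5, exact permutation p = 0.0079, 0.0921 adjusted over all miRNAs). Shortened forms averaged 17.9% in GH and 25.6% in SI males, forms with an A tail 7.24% and 13.4%, and forms with a T tail 26.9% and 22.5%. For miR-125b-1-3p in females the share was 8.68% in G12F, 7.97% in G13F, 12.3% in G15F, 13.03% in G16F and 9.64% in G17F, and 7.63% in I10F, 2.44% in I12F, 7.42% in I14F, 2.84% in I16F and 6.62% in I17F. The means were 10.3% ± 2.23 in GH and 5.39% ± 2.54 in SI females (SD, n = 5, exact permutation p = 0.0079, 0.184 adjusted over all miRNAs), and the groups did not overlap. The other 11 tests of the members gave p from 0.0397 to 0.833, and from 0.200 to 0.970 adjusted over all miRNAs. Whether the share differs more in one sex than in the other was not tested.

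**Figure D4:**
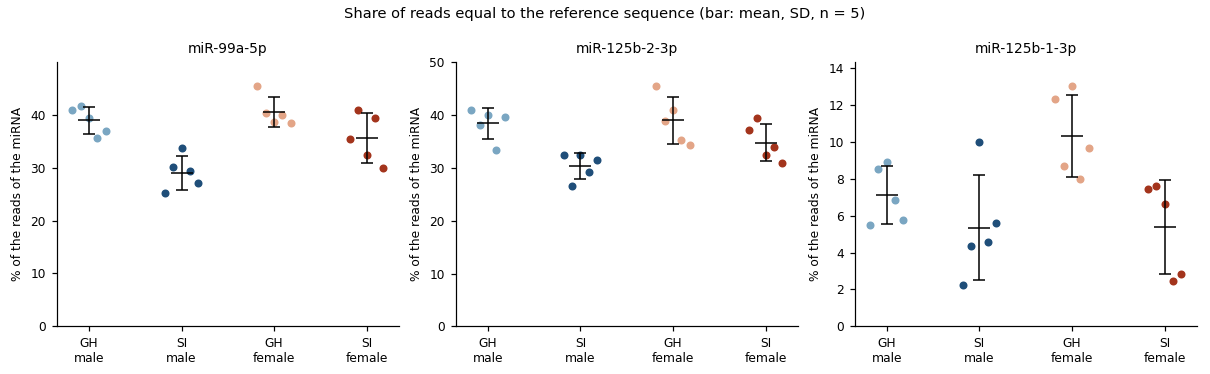
Percent of the reads of miR-99a-5p, miR-125b-2-3p and miR-125b-1-3p that equal the reference sequence (linear axis from 0) in the 5 rats of each group, with the mean and SD as bars. SI males lay below GH males for miR-99a-5p (25.2% to 33.6% against 35.6% to 41.6%) and miR-125b-2-3p (26.6% to 32.4% against 33.5% to 40.9%), and SI females below GH females for miR-125b-1-3p (2.44% to 7.63% against 7.97% to 13.03%).

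Whether neighbours in a cluster varied together was examined over the 20 rats as deviations of the log2 level from the group mean, permuted within groups 100000 times. miR-100-5p and miR-125b-1-3p of the chromosome 8 cluster varied in opposite directions (Pearson r = -0.80, permutation p = 0.00036, adjusted over 3 pairs p = 0.0011, and Spearman rho = -0.68, permutation p = 0.0034, adjusted p = 0.0101). Without G15F and I16F, the rats farthest from the median of miR-100-5p, r was -0.60. With single rats omitted r lay between -0.85 and -0.69. miR-99a-5p and miR-125b-2-3p of chromosome 11 gave r = 0.47 and rho = 0.05 (permutation p = 0.175 and 0.863, adjusted p = 0.262 and 0.863), which rested on few rats, since r was -0.26 without I10F and I16F. miR-99b-5p and miR-125a-5p of chromosome 1 gave r = 0.28 and rho = 0.30 (permutation p = 0.291 and 0.273, adjusted p = 0.291 and 0.409), and r was 0.38 without G19M and I19M. All levels in a library share its normalization. Over the 21 pairs of members, r ran from -0.83, for miR-99a-5p with miR-125b-1-3p, to 0.81, for miR-125a-5p with miR-125b-1-3p.

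**Figure D5:**
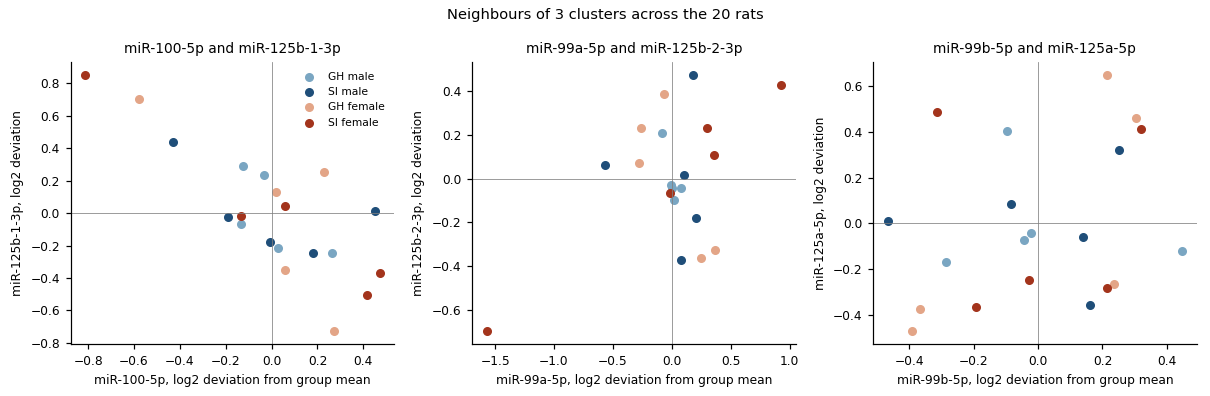
Deviation of the log2 level of each rat from the mean of its group for a pair of members of each of the 3 clusters, colored by group, with grey lines at 0. The points of miR-100-5p and miR-125b-1-3p fall from upper left to lower right (r = -0.80), with I16F at the upper left end, while the other pairs gave r = 0.47 and r = 0.28.

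The other products of the clusters and relatives of the families were taken as a list of 14 miRNAs, of which 13 were tested, 6 of them with a median under 100 reads. In males and in females 0 of 13 passed in each (edgeR), beside 4% and 0.4% of all miRNAs. In the mean effect of both sexes 2 were higher in SI rats and 1 was lower, beside 17.6% of all. let-7a-5p, which the chromosome 8 cluster and other loci encode, rose by a log2 fold change of 0.60 (SE 0.19, adjusted p = 0.0358). It passed in 8 of 20 fits that each omitted 1 rat (adjusted p 0.0097 to 0.0712), and neither without TMM (0.42, adjusted p = 0.0680) nor without I16F and I17M (0.45, adjusted p = 0.0843). let-7c-1-3p, the passenger of the let-7 hairpin beside miR-99a, rose by 1.16 (SE 0.37, adjusted p = 0.0340), with between 31 and 442 reads in a library. It passed in 12 of the 20 fits (adjusted p 0.0205 to 0.0873), and did not pass without TMM (0.99, adjusted p = 0.0639), without the count filter (1.15, adjusted p = 0.0576) or without I16F and I17M (0.77, adjusted p = 0.126). miR-10b-5p, a relative of miR-100 by sequence, was called lower at a median of 0 reads, and was without reads in 11 libraries. The let-7 guides of the other clusters did not pass: let-7c-5p gave 0.54 (SE 0.22, adjusted p = 0.0889) and let-7e-5p 0.47 (SE 0.21, adjusted p = 0.122). The let-7 guides differ from each other by few bases, so their counts depend on how the authors' alignment divided the reads.

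The 2 miRNAs outside the members whose levels followed each member most closely were taken by Spearman rho of the log2 level over the 20 libraries, group differences included and with no test. miR-99a-5p was followed by miR-29a-3p and miR-29b-3p (rho = 0.94 each), members of 1 family. Their mean effects of both sexes were -1.07 and -1.20 (edgeR, adjusted p = 0.0058 and 0.0439). The lower level in SI rats was thus not particular to miR-99a-5p. miR-125a-5p was followed by miR-485-3p (rho = 0.91) and by let-7e-5p (rho = 0.90), its neighbour in the chromosome 1 cluster. miR-125b-1-3p was also followed by miR-485-3p (rho = 0.97), and then by miR-3099 (rho = 0.92), and miR-125b-2-3p by miR-411-3p (rho = 0.85) and miR-708-3p (rho = 0.84). The mean effects on miR-485-3p and miR-3099 were 0.79 and 0.64 (edgeR, adjusted p = 0.0272 and 0.0358). For miR-99b-5p the closest were miR-181a-2-3p (rho = 0.75) and miR-151-3p (rho = 0.72), for miR-100-5p miR-362-5p (rho = 0.75, at a median of 3.605 CPM) and miR-93-5p (rho = 0.70), and for miR-125b-5p miR-149-5p (rho = 0.60) and miR-339-5p (rho = 0.56). let-7e-5p was the only one of these 13 miRNAs that belongs to a cluster of the members.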

How the data were processed

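Total RNA (215 ng) of each punch was made into small RNA libraries with 22 PCR cycles. The authors trimmed and collapsed the reads and assigned them with seqbuster to miRBase rat precursors. They deposited a count of every distinct sequence, not normalized and with no count under 2. FastQC and STAR are named in the submitters' processing notes. Tool versions are not given in the sources used here.

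Counts were summed per miRNA, reads of several miRNAs counting for each (at most 104 reads of the members in a library). miRNAs with at least 10 reads in at least 5 libraries were tested with edgeR 4.0.16 (R 4.3.3, TMM, quasi-likelihood F test, 1 model of 4 groups), with Benjamini-Hochberg adjustment over 500 miRNAs and a threshold of 0.05. DESeq2 1.42.0, the authors' tool, was an alternative. The fit was tested on simulated data. Exact permutation tests were two-sided over 252 assignments (Python 3.11.15, scipy 1.17.1). Depth was 3428930 to 11383055 reads. The labels do not say that rats came from separate litters, so p-values measure the spread between these rats. The named miRNAs are the members, a list of 14 related miRNAs and the 2 most alike to each member. Members and lists were chosen with earlier results of these data known.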

Additional observations from a re-analysis of the deposited data

Results flagged for a closer look

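In 6 groups of 5 rats a single rat lay far from the others by Dixon's criterion. The rule was applied to 72 groups, and chance alone marks about 1 in 20. For miR-125a-5p, G16M had a log2 CPM of 15.52, and the nearest GH male 15.08. For miR-125b-2-3p, G18M had a log2 CPM of 11.09, and the nearest GH male 10.85. For miR-99a-5p, I17M had a log2 CPM of 11.02, and the nearest SI male 11.66. I17M was also apart in the share of reads equal to the reference for miR-100-5p (44.6%, nearest SI male 51.0%) and for miR-125b-5p (39.3%, nearest 47.0%). For miR-99a-5p, G15F had a reference share of 45.4%, and the nearest GH female 40.2%.

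The housing effect on the log2 ratio of miR-125b-5p to the sum of its passengers differed between the sexes, with a female effect minus male effect of -0.82 (exact permutation p = 0.0053, adjusted p = 0.0212 over 4 ratios). Most passenger reads were those of miR-125b-2-3p, whose own difference between the sexes did not pass (edgeR, adjusted p = 0.485). Such ratios of other miRNAs were not formed.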

How the results depend on the processing

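The mean effect on miR-99a-5p, the difference between the sexes in the miR-125b guide to passenger ratio and the correlation of miR-100-5p with miR-125b-1-3p kept direction and side of the threshold under every alternative run for them. The number of members called in males was 1 with DESeq2, beside 12.4% of the miRNAs it adjusted. It was also 1 with I16F and I17M both omitted (an alternative chosen after seeing the data). With the males alone in the fit it was 2, beside 18.5% of all miRNAs. Over the fits that each omitted 1 rat it was 0 to 2, the 2 being without I16F. In females it was 1 with DESeq2, beside 19.3%, and 0 to 2 with single rats omitted, the 2 being without I10F. The fit of the females alone called 0 of 462 miRNAs. For the mean effect it was 1, miR-99a-5p, without TMM, without the count filter, with the I17 libraries exchanged, with reads of a single miRNA and with I16F and I17M both omitted, and 1 to 3 with single rats omitted, miR-125a-5p being among the 3 without G15F. The cause of these changes was not tested. For the alternatives given here without a share of all miRNAs, that share was not counted, so their counts are not results about the members.

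Small effects changed sign. Without TMM, miR-100-5p gave -0.12 in males, -0.19 in females and -0.15 as the mean effect, miR-125b-5p -0.10 in males and miR-99b-5p -0.10 as the mean effect. With reads of a single miRNA, miR-100-5p gave -0.013 and miR-125b-5p -0.0015 in males. With the I17 libraries exchanged, miR-100-5p gave -0.021 in females, the interaction of miR-99a-5p -0.025, and the difference between the sexes in the miR-99a-5p to miR-100-5p ratio -0.10. The mean effect on miR-125b-5p was 0.0031 with DESeq2 size factors and with DESeq2, and 0.0098 without I16F and I17M. With single rats omitted, the range was -0.18 to 0.046 for miR-99b-5p, -0.11 to 0.10 for miR-100-5p and -0.011 to 0.067 for miR-125b-5p in males, -0.083 to 0.23 for miR-100-5p in females, and -0.044 to 0.11 for miR-100-5p and -0.066 to 0.019 for miR-125b-5p as mean effects. It was -0.010 to 0.47 for the interaction of miR-99a-5p, -0.089 to 0.23 for the difference between the sexes in the miR-99a-5p to miR-100-5p ratio, -0.97 to -0.65 for that ratio in females (past the threshold in 1 fit) and -0.11 to 0.56 for the correlation of miR-99a-5p with miR-125b-2-3p.

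Adjusted over the 14 tests of the members, the reference share passed for miR-99a-5p (-9.86 percentage points) and miR-125b-2-3p (-8.04) in males and miR-125b-1-3p (-4.94) in females, and adjusted over all miRNAs, an alternative chosen after seeing the data, for none. It was past the threshold in none of the fits with 1 rat of that sex omitted, where 5 rats against 4 allow no exact p below 0.0159. The differences in percentage points then ran from -11.0 to -8.90 for miR-99a-5p in males, -9.30 to -7.08 for miR-125b-2-3p in males and -5.52 to -4.20 for miR-125b-1-3p in females. Those of miR-125b-5p ran from -1.91 to 0.27 in males and -1.22 to 0.99 in females, and that of miR-99b-5p in females from -1.81 to 0.20.

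Some rats of opposite housing share a number in their labels, 2 pairs of males and 3 of females. Their deviations correlated at -0.11 and -0.01 in males and at 0.10, -0.40 and -0.05 in females, so the numbers were not taken to pair the rats. With the number as a replicate block 0 members were called in either sex. miR-125b-5p was -0.038 in males and 0.12 in females, and miR-100-5p -0.17 in females, beside -0.027, 0.13 and -0.080 for the same rats without the block.

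With 5 rats a group, effects within the spread between rats could not be detected, and a p above the threshold does not show that levels were alike. At 1483 or more reads of each member in every library, counting error was not the limit for the members. The SI libraries were deeper at the median than the GH libraries in both sexes. The part of this in the housing comparisons was not tested.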
